A study of Mus musculus with 6 samples.

Results

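The genes described here are the inorganic ion and acid-base members of the solute carrier superfamily in mouse ureteric epithelium: the Slc4, Slc8, Slc9, Slc12, Slc20, Slc24, Slc26 and Slc34 families. They were taken by gene symbol, leaving out Slc4a1, Slc4a9, Slc26a4 and Slc8a1, and no measured value entered the choice. The deposited table listed 51 such symbols, of which 47, among 21456 symbols with values in all, carried values. Messenger RNA was sequenced from kidneys of CFW mice at the embryonic stage E16.5, where 2 fluorescent reporters marked the ureteric tree, the branching epithelium that becomes the collecting ducts. Tip cells (Wnt11RFP+;Hoxb7GFP+) showed the red Wnt11 reporter of the growing ends together with the green Hoxb7 reporter of the whole tree. Stalk cells (Wnt11RFP-;Hoxb7GFP+) showed the green reporter alone, and each group had 3 libraries. All libraries came from green cells, tip and stalk alike, and the labels do not say whether the groups shared embryos, how many embryos went into each library, or how the cells were separated. P-values therefore measured only the spread between these libraries, which may be technical.

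These carriers move sodium, potassium, chloride, bicarbonate, sulfate, phosphate and calcium across membranes without using ATP themselves, driven by gradients that the sodium pump sets up. Slc4 proteins carry bicarbonate and Slc9 proteins exchange sodium for protons, so both set the pH of the cell. Slc12 proteins cotransport chloride with sodium or potassium and set cell volume, and in the adult kidney members of this family are the targets of diuretic drugs. Slc26 proteins exchange chloride, bicarbonate, sulfate or oxalate, Slc20 and Slc34 proteins take up phosphate with sodium, and Slc8 and Slc24 proteins exchange sodium for calcium. In the collecting duct, carriers of these families work in intercalated cells, which secrete acid or base, and in principal cells, which take up sodium and water.

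Levels are RPKM (reads per kilobase of transcript, scaled to the mapped reads of the library), so they can be compared between genes, and means are given ± SD over n = 3 libraries. A gene was tested when its mean over the 6 libraries was at least 1 RPKM. It is called higher in tip or in stalk when the Benjamini-Hochberg adjusted p of limma, over all 12532 genes tested, was under 0.05. Log2 fold changes are tip minus stalk on log2(RPKM + 1), a scale that understates the change of low genes, and are given with their SE. In bulk samples such as these, fewer cells of a type and less RNA per cell cannot be told apart.

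Of the 47 carriers with values, 27 were tested. Of 6 Slc9 sodium-proton exchangers 5 were higher in stalk, of 6 Slc4 bicarbonate carriers 3 were higher in tip and 2 in stalk, and of 7 Slc12 cotransporters 5 were not called. Higher in tip were 5 of the 27 (18.5%), where 26.1% of all tested genes were. Higher in stalk were 11 of the 27 (40.7%), where 22.5% of all tested genes were, and the other 11 were not called. Together 16 of the 27 were called, where 48.6% of all tested genes were. After median ratio scaling of the libraries 5 carriers were higher in tip and 12 in stalk, where 24% and 25.1% of all tested genes were. The 27 had a median log2 fold change of -0.33, against 0.05 over all tested genes. The filter entered these counts, since 6 of the 27 carriers reached a mean of 1 RPKM in stalk only, and 4 of those 6 were called. Among the 21 carriers at 1 RPKM or more in both groups, 5 were higher in tip and 7 in stalk, where 25.6% and 20.7% of all such genes were. The tip libraries all lay above the stalk libraries in 5 tested carriers (31.3% of tested genes), and the stalk libraries all lay above the tip libraries in 15 (26.5% of tested genes).

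**Figure D1:**
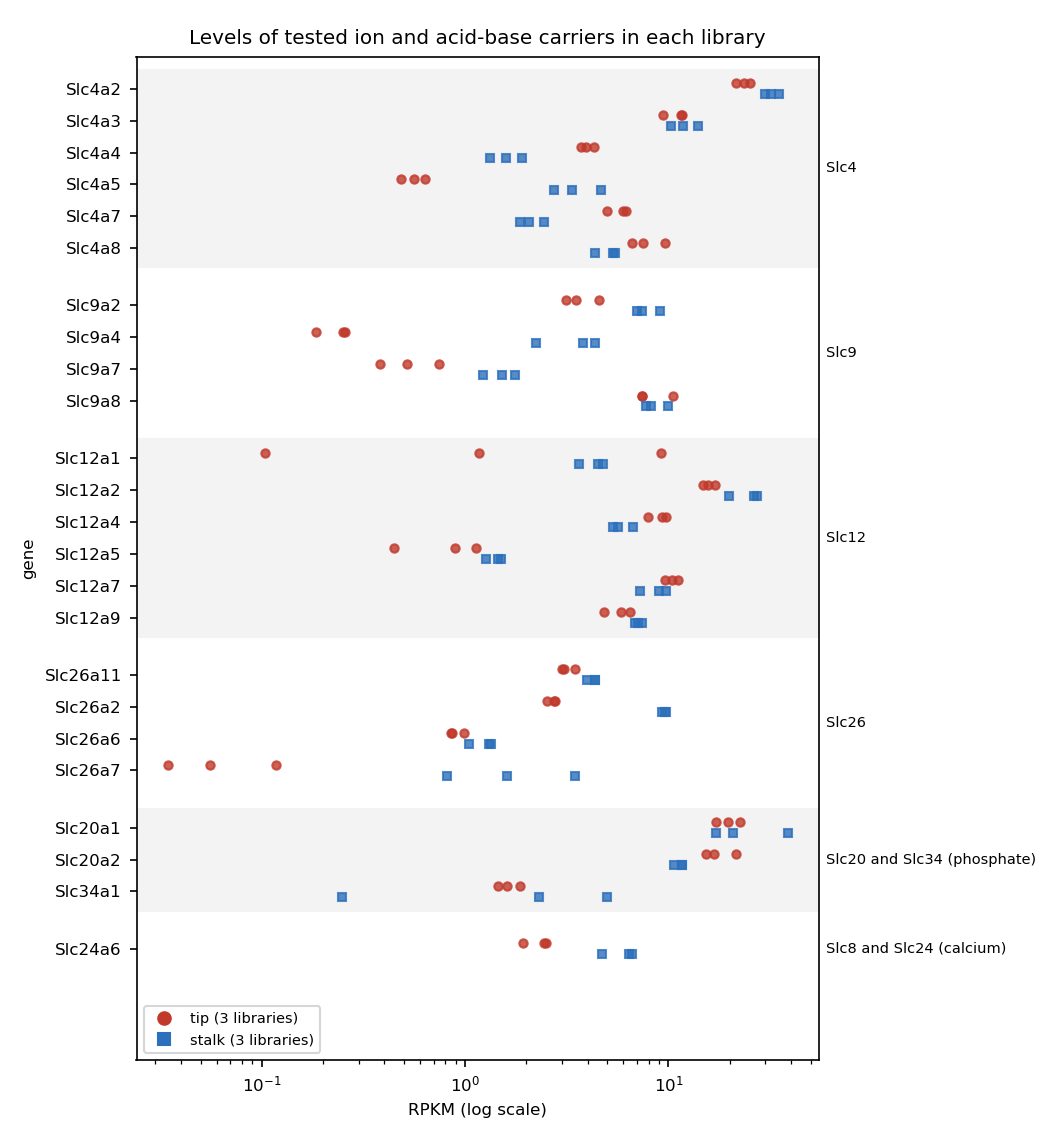
RPKM on a log axis (x) of 24 tested carriers (y), grouped by family; each red circle is a tip library and each blue square a stalk library. Slc4a2 lies farthest right with a mean of 27.8 RPKM, and Slc9a4, Slc26a7, Slc4a5 and Slc9a7 show tip circles under 1 RPKM and well to the left of the stalk squares.

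The libraries followed their tip and stalk labels. Wnt11 stood at 423 to 930 RPKM in tip and 1.92 to 24.5 RPKM in stalk, and Hoxb7 at 51.8 to 94.8 RPKM in tip and 38.3 to 65.8 RPKM in stalk. Markers of the ureteric epithelium itself were all tested (10 of 10): 3 were higher in tip, 4 in stalk and 3 were not called, with a median log2 fold change of 0.22. Their sums, 1010 to 1372 RPKM in tip and 2260 to 2960 RPKM in stalk, were mostly the keratin genes Krt8 (means 151 RPKM in tip against 717 RPKM in stalk) and Krt18 (256 RPKM in tip against 1085 RPKM in stalk). Endothelial markers went with stalk: 9 of 9 tested were higher there, their sum over all 11 markers was 24.7 to 28.4 RPKM in tip and 66.2 to 110 RPKM in stalk, and no marker was at 0 in all libraries. Of 14 immediate early and heat shock genes, 8 were higher in stalk and 0 in tip, with a sum of 3259 to 4403 RPKM in tip and 4435 to 7100 RPKM in stalk. Stromal markers had 0 of 4 tested genes called, with sums of 5.13 to 10.2 RPKM in tip and 5.44 to 9.84 RPKM in stalk. Of 9 markers of nephron progenitors and early nephron, the 4 tested were higher in tip, and the sums were 52.2 to 52.7 RPKM in tip and 19.7 to 28.6 RPKM in stalk. Most of these sums was Jag1 (31.4 RPKM in tip against 19.2 RPKM in stalk) and Lhx1 (15.7 RPKM in tip against 2.66 RPKM in stalk), the second of which is also in the ureteric list. The remaining tested markers were at lower levels and also higher in tip. They were Cited1 (2.15 RPKM in tip against 0.804 RPKM in stalk) and Crym (2.23 RPKM in tip against 0.512 RPKM in stalk). The progenitor genes Six2 (0.638 RPKM in tip against 0.148 RPKM in stalk) and Osr1 (0.0455 RPKM in tip against 0.535 RPKM in stalk) were under the filter and lay on opposite sides. All 9 principal cell markers were higher in stalk (sums of 40.6 to 77.1 RPKM in tip and 960 to 1350 RPKM in stalk), as were 7 of 8 tested urothelial markers (sums of 3.01 to 4.2 RPKM in tip and 254 to 548 RPKM in stalk). The part of these cells and of the dissociation response in the carriers below was not tested.

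The bicarbonate carriers of the Slc4 family had 6 members tested, 3 higher in tip and 2 higher in stalk. Over all tested genes the shares were 26.1% and 22.5%. Slc4a2 encodes a chloride-bicarbonate exchanger found in most cells (chromosome 5, 24423837 to 24440950, plus strand, mm10) and had the highest level of all 47 carriers. It stood at 23.5, 21.6 and 25.1 RPKM in the 3 tip libraries, against 29.7, 35.1 and 32 RPKM in the 3 stalk libraries. The groups did not overlap, and the change was -0.45 on the log2 scale (SE 0.11, limma adjusted p = 0.00845). With the highest row of the gene in place of the sum over its 14 rows the call was lost (-0.06, limma adjusted p = 0.75). Its related exchanger gene Slc4a3 stood at 11.7, 11.5 and 9.38 RPKM in tip and 11.8, 10.3 and 14 RPKM in stalk, overlapping and not called (-0.14, 95% interval -0.46 to 0.19, limma adjusted p = 0.458).

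The sodium-coupled bicarbonate carriers went opposite ways. Slc4a7, which encodes an electroneutral sodium-bicarbonate cotransporter (chromosome 14, 14702279 to 14799940, plus strand), stood at 5.96, 6.18 and 4.98 RPKM in tip, against 2.07, 1.86 and 2.43 RPKM in stalk. Every tip library exceeded every stalk library, by 2.69-fold on the means (log2 fold change 1.10, SE 0.15, limma adjusted p = 0.000446). Slc4a4, the electrogenic sodium-bicarbonate cotransporter gene known from the proximal tubule, averaged 3.99 ± 0.311 RPKM in tip and 1.61 ± 0.291 RPKM in stalk (0.94, limma adjusted p = 0.00123). Slc4a8, which encodes a sodium-driven chloride-bicarbonate exchanger, averaged 7.91 ± 1.58 RPKM in tip and 5.06 ± 0.611 RPKM in stalk (0.55, limma adjusted p = 0.0224). Its call was lost without tip replicate 1 (adjusted p = 0.0864), without tip replicate 3 (0.0523) and without stalk replicate 2 (0.0675), all by limma, and with the highest row or without a filter (0.0638 and 0.0566).

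Slc4a5, which encodes another electrogenic sodium-bicarbonate cotransporter, went the other way (chromosome 6, 83219828 to 83304945, plus strand). It stood at 0.562, 0.632 and 0.486 RPKM in tip, against 4.64, 3.34 and 2.75 RPKM in stalk. The stalk mean was 6.38 times the tip mean, with no overlap (log2 fold change -1.53, SE 0.19, limma adjusted p = 0.000294). With a pseudocount of 0.1 the log2 fold change of Slc4a5 was -2.45. Slc4a5 reached 1 RPKM, and so the filter, through stalk only. Of the family's other members with values, Slc4a11 averaged 0.447 RPKM and Slc4a10 0.0144 RPKM over the 6 libraries, and neither was tested.

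Stretches of 250 bases before annotated transcription starts (RefSeq, GRCm38.p6, plus strand) are shown for the Slc4 genes with the largest changes toward tip and for Slc4a2, whose listed rows differed (below). Windows with annotated exon bases, among them that of Slc4a5 and another of Slc4a4, are not shown. All windows shown lie inside the annotated genes, downstream of gene starts at 14702279 (Slc4a7), 88886818 (Slc4a4) and 24423837 (Slc4a2). Which start was used in these cells was not tested. Capitals mark any of 5 motifs, chosen after the expression values were seen and searched on both strands: the ETS core CCGGAA, the forkhead core TAAACA, the GATA motif AGATAA, the GC box GGGCGG and the TATA box TATAAA.
Slc4a7, chr14:14718534-14718783: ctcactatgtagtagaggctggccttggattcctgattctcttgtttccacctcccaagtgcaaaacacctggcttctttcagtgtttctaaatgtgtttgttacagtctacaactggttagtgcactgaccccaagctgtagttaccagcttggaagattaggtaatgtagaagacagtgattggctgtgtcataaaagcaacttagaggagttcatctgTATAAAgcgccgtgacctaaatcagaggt
Slc4a4, chr5:89027716-89027965: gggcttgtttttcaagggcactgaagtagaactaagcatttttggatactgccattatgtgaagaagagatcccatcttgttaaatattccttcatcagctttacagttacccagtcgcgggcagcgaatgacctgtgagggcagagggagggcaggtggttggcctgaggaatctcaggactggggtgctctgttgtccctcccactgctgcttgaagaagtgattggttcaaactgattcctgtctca
Slc4a2, chr5:24424982-24425231: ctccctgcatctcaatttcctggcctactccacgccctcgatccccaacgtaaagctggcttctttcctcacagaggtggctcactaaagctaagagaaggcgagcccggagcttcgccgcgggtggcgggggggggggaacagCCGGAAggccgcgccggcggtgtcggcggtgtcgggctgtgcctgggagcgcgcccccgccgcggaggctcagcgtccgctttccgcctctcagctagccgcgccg
Slc4a2, chr5:24425594-24425843: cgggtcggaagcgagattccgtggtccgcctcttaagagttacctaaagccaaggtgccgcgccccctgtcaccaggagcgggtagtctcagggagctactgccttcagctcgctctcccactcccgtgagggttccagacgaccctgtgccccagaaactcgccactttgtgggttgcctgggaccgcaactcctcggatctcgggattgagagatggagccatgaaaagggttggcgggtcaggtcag

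The Slc4a7 window held a TATA box, present in 12.4% of all 32851 promoter windows of the same length, and had 43.6% G or C bases with 2 CG pairs. Of the Slc4a2 windows, the one nearer the gene start held an ETS core, present in 12% of all windows. It had 69.2% G or C with 28 CG pairs, where the median over all windows was 52.4% and 6. The Slc4a4 window shown and the other Slc4a2 window held none of the motifs. The Slc4a4 window not shown (chr5:88887010-88887259) held a GC box and had 82% G or C with 44 CG pairs. The table of promoters matched 35 of the 47 carriers, with 45 windows, of which 21 held a GC box (32.7% of all windows), 8 an ETS core (12%), 8 the GATA motif (9.99%), 7 a TATA box (12.4%) and 4 a forkhead core (12%). These matches describe the letters and are not binding sites.

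The sodium-proton exchangers of the Slc9 family had 6 members tested, of which 5 were higher in stalk, 0 higher in tip and 1 not called. Over all tested genes 22.5% were higher in stalk and 26.1% in tip. Slc9a4 and Slc9a7 reached 1 RPKM, and so the filter, through stalk only. On log2(RPKM + 1) the largest change of any tested carrier was that of Slc9a4, though with a pseudocount of 0.1 that of Slc26a7 was larger (-3.42). Slc9a4 is an exchanger gene known from gastric parietal cells and the thick ascending limb. It stood at 0.185, 0.25 and 0.258 RPKM in tip, against 2.22, 4.36 and 3.8 RPKM in stalk. The stalk mean was 15 times the tip mean, and the change on the log2 scale was -1.82 (SE 0.22, limma adjusted p = 0.000241), or -3.38 with a pseudocount of 0.1. Slc9a4 (chromosome 1, 40580081 to 40630725, plus strand) has Slc9a2 as its neighbour on the same strand (40680574 to 40769273), with 49848 bases and no other protein-coding gene between them. Slc9a2, which encodes an apical exchanger of epithelia, averaged 3.74 ± 0.728 RPKM in tip and 7.85 ± 1.11 RPKM in stalk (-0.91, limma adjusted p = 0.00202). The neighbours were thus both higher in stalk, at unequal ratios of 15 and 2.1.

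Slc9a7, which acts in the trans-Golgi network, averaged 0.548 ± 0.183 RPKM in tip and 1.49 ± 0.262 RPKM in stalk (-0.69, limma adjusted p = 0.0127), a call lost without tip replicate 3 (adjusted p = 0.055). Without any 1 of the stalk libraries Slc9a7 was under the filter. Slc9a8, an exchanger of Golgi and apical membranes, stood at 10.5, 7.45 and 7.38 RPKM in tip and 7.74, 8.25 and 10 RPKM in stalk. It overlapped between groups and was not called (-0.04, 95% interval -0.42 to 0.34, limma adjusted p = 0.852). Slc9a9, an endosomal exchanger gene, was under the filter at 0.567 RPKM over all libraries, with 0, 0.0697 and 0.216 RPKM in tip and 0.798, 0.855 and 1.46 RPKM in stalk. Slc9a3, the apical exchanger gene of the proximal tubule, averaged 0.194 RPKM and was not tested.

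**Figure D2:**
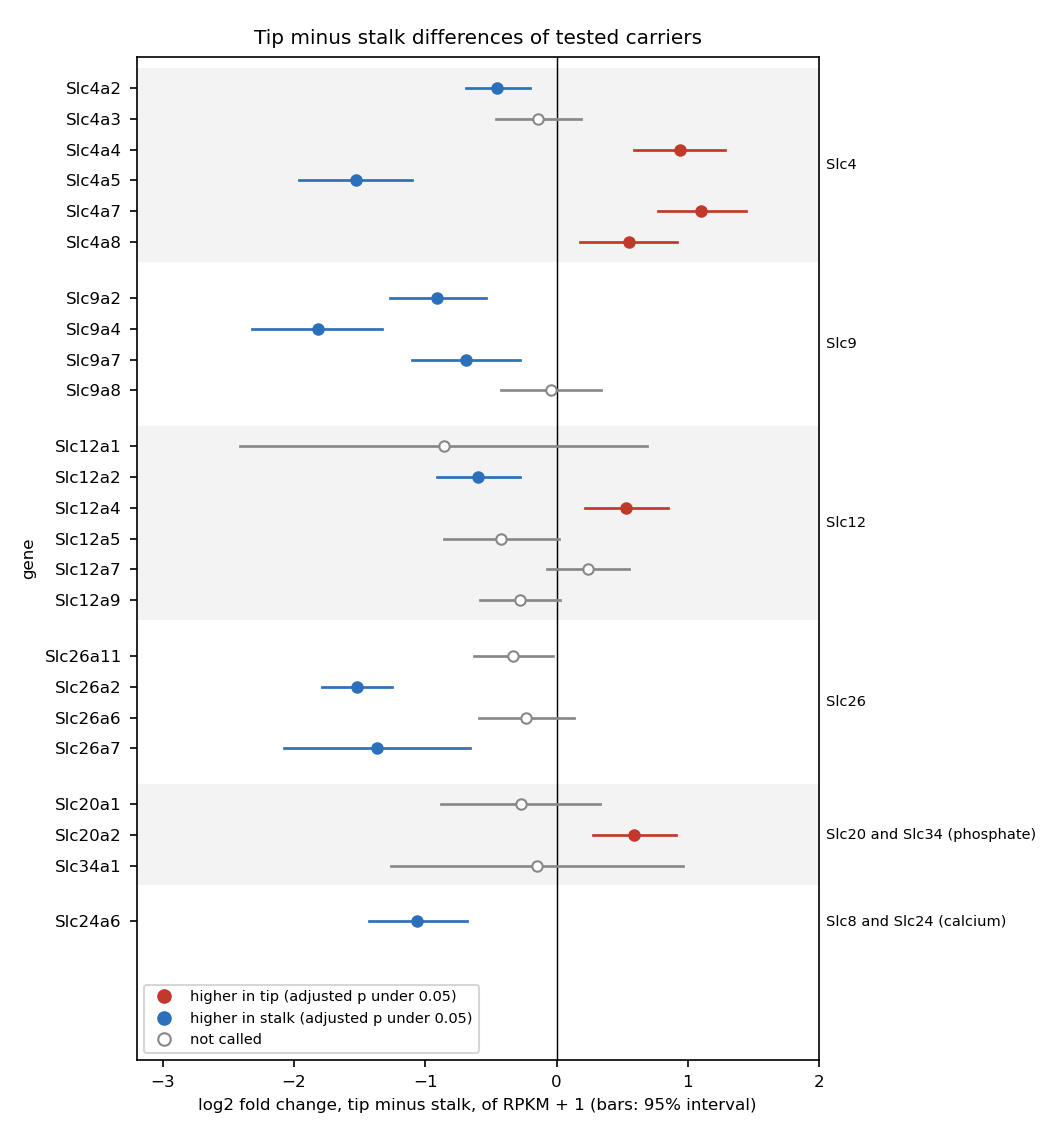
Log2 fold change, tip minus stalk, of RPKM + 1 (x) with its 95% interval (bars) for 24 tested carriers (y), grouped by family; filled red points were called higher in tip, filled blue points higher in stalk, and open grey points were not called. Of 4 Slc9 genes drawn, 3 are filled blue, the Slc4 genes lie on both sides, and the widest interval is that of Slc12a1 (-2.41 to 0.69).

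Among 7 tested cation-chloride cotransporters, 1 was higher in stalk, 1 was higher in tip and 5 were not called. Over all tested genes 22.5% were higher in stalk and 26.1% in tip. Slc12a2, the sodium-potassium-chloride cotransporter gene of secretory epithelia (chromosome 18, 57878678 to 57946821, plus strand), stood at 17, 15.6 and 14.8 RPKM in tip, against 27.3, 19.9 and 26.4 RPKM in stalk. Stalk replicate 2 was the nearest to tip, yet the groups did not overlap (-0.60, SE 0.14, limma adjusted p = 0.00761). Slc12a4, which encodes a widespread potassium-chloride cotransporter and brings chloride out of the cell where Slc12a2 brings it in, averaged 8.99 ± 0.967 RPKM in tip and 5.89 ± 0.719 RPKM in stalk (0.53, limma adjusted p = 0.0116). Its call was lost without tip replicate 1 (adjusted p = 0.0524) and with the highest row (0.0593).

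Slc12a7, another potassium-chloride cotransporter gene, stood at 11.1, 10.4 and 9.59 RPKM in tip and 7.27, 9.01 and 9.76 RPKM in stalk, with stalk replicate 3 inside the tip range (0.24, 95% interval -0.07 to 0.55, limma adjusted p = 0.174). Slc12a5, known as the neuronal member, averaged 0.823 ± 0.347 RPKM in tip and 1.41 ± 0.125 RPKM in stalk (-0.42, adjusted p = 0.105). Slc12a9, whose transported ion is not settled, averaged 5.71 ± 0.808 RPKM in tip and 7.1 ± 0.274 RPKM in stalk (-0.28, adjusted p = 0.118). Slc12a8 was under the filter, at 0.217, 0.108 and 0.105 RPKM in tip and 0.841, 1.3 and 1.19 RPKM in stalk.

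Slc12a1, the loop diuretic target of the thick ascending limb, differed more within tip than between groups. It stood at 0.104, 1.17 and 9.14 RPKM in tip, against 3.63, 4.74 and 4.49 RPKM in stalk. Tip replicate 3 was the highest of the 6 libraries and tip replicate 1 the lowest, and the difference was not called (-0.86, 95% interval -2.41 to 0.69, limma adjusted p = 0.322). Without tip replicate 3 it was called toward stalk (-1.77, adjusted p = 0.00338). Umod, the uromodulin gene that defines the thick ascending limb, was also highest in tip replicate 3. It stood at 0, 0.0851 and 2.16 RPKM in tip and 0.273, 0.0475 and 0.123 RPKM in stalk. Within stalk, replicate 2 had the highest Slc12a1 but the lowest Umod. The list of 10 loop and distal tubule markers had 9 with values (Pvalb had none), 4 tested, 1 higher in tip and 0 in stalk, and a sum of 376 to 420 RPKM in tip and 80.5 to 149 RPKM in stalk. Most of that sum was Calb1, with 327 ± 7.68 RPKM in tip and 54.9 ± 26 RPKM in stalk, which the ureteric tree also expresses. Slc12a3, the thiazide target of the distal convoluted tubule, stood at 0.183, 0.0579 and 0.0955 RPKM in tip and 0.317, 3.14 and 0 RPKM in stalk, so that its stalk mean rested on replicate 2.

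Of 4 tested Slc26 anion exchangers, 2 were higher in stalk and 0 in tip, where 22.5% and 26.1% of all tested genes were. The stalk libraries lay above the tip libraries in each (26.5% of all tested genes), but Slc26a7 and Slc26a6 reached 1 RPKM, and so the filter, through stalk only. Slc26a2, the sulfate transporter gene whose loss causes cartilage disease (chromosome 18, 61192919 to 61211612, minus strand), stood at 2.53, 2.74 and 2.77 RPKM in tip, against 9.27, 9.7 and 9.63 RPKM in stalk. The libraries of each group were tight, and the stalk mean was 3.56 times the tip mean. The change on the log2 scale was -1.52 (SE 0.12), with the lowest adjusted p of the tested carriers (limma adjusted p = 3.03e-05).

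Slc26a7, which encodes a chloride carrier of acid-secreting intercalated cells (chromosome 4, 14502430 to 14621805, minus strand), stood at 0.117, 0.0554 and 0.0344 RPKM in tip, against 0.818, 3.47 and 1.6 RPKM in stalk. The groups did not overlap (-1.37, SE 0.31, limma adjusted p = 0.0067), and the log2 fold change was -3.42 with a pseudocount of 0.1. Without stalk replicate 2 or stalk replicate 3 it was under the filter. Within stalk it was highest in replicate 2 and lowest in replicate 1. Foxi1, the transcription factor gene that defines intercalated cells, had the same order in stalk. It stood at 0.171, 0.00812 and 0.352 RPKM in tip and 18.5, 60.9 and 38.6 RPKM in stalk. That order was not particular to intercalated cells. The summed principal cell markers (960, 1350 and 1235 RPKM in stalk) and urothelial markers (254, 548 and 431 RPKM) had it too. So did the immediate early and heat shock genes (4435, 7100 and 6522 RPKM), while the endothelial markers did not (110, 66.2 and 86.9 RPKM). The part of any of these in Slc26a7 was not tested. All 11 tested of 12 intercalated cell markers were higher in stalk, with a list sum of 27.2 to 31.6 RPKM in tip and 349 to 658 RPKM in stalk, and no marker was at 0 in all libraries.

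Slc26a11, a sulfate and chloride carrier gene, stood at 2.98, 3.49 and 3.07 RPKM in tip, against 4.37, 4.37 and 3.98 RPKM in stalk. It missed the threshold in spite of groups that did not overlap (-0.33, 95% interval -0.63 to -0.03, limma adjusted p = 0.0698), and passed it after median ratio scaling of the libraries (adjusted p = 0.0476) and without a mean-variance trend (0.0376). Slc26a6, an exchanger of chloride for oxalate or bicarbonate, averaged 0.9 ± 0.0758 RPKM in tip and 1.23 ± 0.158 RPKM in stalk (-0.23, adjusted p = 0.261). Slc26a9, a chloride transporter gene known from airway and stomach, went the other way but was under the filter, at 2.01, 1.23 and 1.04 RPKM in tip and 0.142, 0.334 and 0.159 RPKM in stalk. Every tip library was above every stalk library, at a ratio of 6.73. Slc26a1, a sulfate and oxalate exchanger gene, was also under the filter, at 0.303, 0.982 and 0.218 RPKM in tip and 1.91, 0.978 and 0.411 RPKM in stalk, with overlapping groups.

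**Figure D3:**
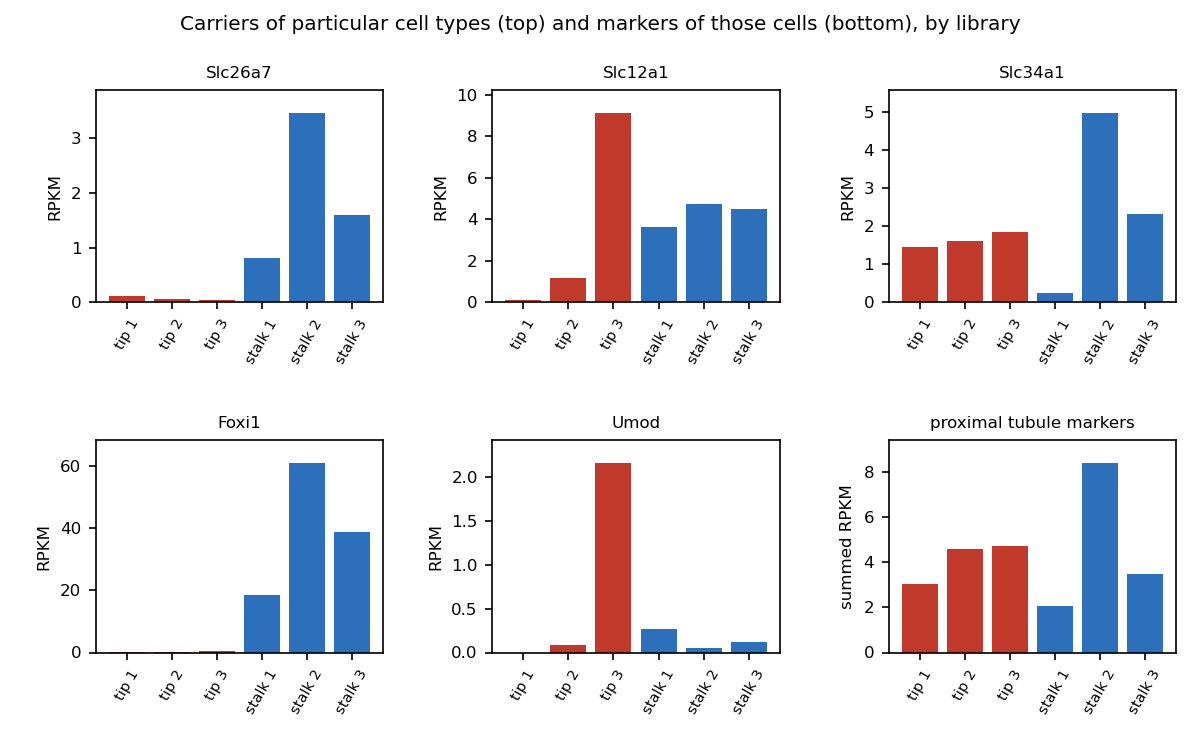
RPKM (y) in each of the 6 libraries (x; red bars tip, blue bars stalk) for Slc26a7, Slc12a1 and Slc34a1 (top) and, under them, for Foxi1, Umod and the summed 10 proximal tubule markers. The library with the highest carrier level is also the highest below it. This is stalk replicate 2 for Slc26a7 (3.47 RPKM) and Slc34a1 (4.99 RPKM), and tip replicate 3 for Slc12a1 (9.14 RPKM). Stalk replicate 2 was also the highest for the summed principal cell markers, urothelial markers, and immediate early and heat shock genes. Within stalk, replicate 2 has the highest Slc12a1 but the lowest Umod. Foxi1 and Umod were picked after their values were seen.

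The phosphate cotransporters had 3 members tested, 1 of them higher in tip, where 26.1% of all tested genes were. Slc20a2, a widely expressed sodium-phosphate cotransporter gene (chromosome 8, 22476788 to 22569612, plus strand), stood at 21.4, 15.3 and 16.7 RPKM in tip, against 10.7, 11.7 and 11.7 RPKM in stalk. Every tip library exceeded every stalk library, and the change was 0.59 on the log2 scale (SE 0.14, limma adjusted p = 0.00747). Its paralog Slc20a1 stood at 19.7, 22.5 and 17.2 RPKM in tip, against 38.7, 17.2 and 20.7 RPKM in stalk. Stalk replicate 1 stood far above the other libraries, and Slc20a1 was not called (-0.27, 95% interval -0.88 to 0.33, limma adjusted p = 0.42). Without stalk replicate 1 its log2 fold change was 0.06, of opposite sign.

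Slc34a1, the phosphate cotransporter gene of the proximal tubule, stood at 1.45, 1.6 and 1.86 RPKM in tip, against 0.249, 4.99 and 2.32 RPKM in stalk. The stalk libraries lay on both sides of the tip libraries, and the gene was not called (-0.15, limma adjusted p = 0.82), though it was called toward stalk without stalk replicate 1 (-0.76, adjusted p = 0.0434) and had the opposite sign without stalk replicate 2 (0.37, adjusted p = 0.46). All 10 proximal tubule markers had values and 0 were tested. Their summed level was highest in stalk replicate 2 and lowest in stalk replicate 1 as well. It was 3.03, 4.57 and 4.71 RPKM in tip and 2.06, 8.4 and 3.46 RPKM in stalk. The summed erythroid markers had the same highest and lowest libraries, at 18, 12.4 and 72.4 RPKM in tip and 8.86, 83.8 and 23.3 RPKM in stalk. The part of nephron cells in these carriers was not tested.

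Of 6 calcium exchangers with values, 1 was tested. Slc24a6, named Slc8b1 in the current annotation (chromosome 5, 120511168 to 120534024, plus strand), encodes the sodium-calcium exchanger of the inner mitochondrial membrane. It stood at 2.45, 1.93 and 2.5 RPKM in tip, against 4.69, 6.6 and 6.4 RPKM in stalk. The stalk mean was 2.57 times the tip mean, without overlap (-1.06, SE 0.16, limma adjusted p = 0.00102). Slc8a2, a plasma membrane sodium-calcium exchanger gene known from brain, stood at 0.916, 0.682 and 0.746 RPKM in tip and 0.511, 0.25 and 0.596 RPKM in stalk and was not tested.

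Besides the 5 carriers under the filter that reached 1 RPKM in a group (Slc9a9, Slc12a3, Slc12a8, Slc26a1 and Slc26a9), 15 had both group means under 1 RPKM. Their means over all libraries ranged from 0.00509 RPKM (Slc24a1, an exchanger gene of rod photoreceptors) to 0.617 RPKM (Slc8a2), with a median of 0.106 RPKM, and 8 were listed at 0 in at least 1 library. Slc26a5, the prestin gene of hearing, averaged 0.0166 RPKM, and Slc34a2, the phosphate cotransporter gene of lung and gut, 0.109 RPKM. Slc24a2, Slc24a4, Slc26a3 and Slc34a3 had a question mark in place of every value.

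Partners and regulators of these carriers were taken from a list of 31 genes, of which 29 were tested. Of these, 15 were higher in stalk (22.5% of all tested genes were), 3 were higher in tip (26.1% of all tested genes were) and 11 were not called, with a median log2 fold change of -0.32. Among the 26 at 1 RPKM or more in both groups, 13 were higher in stalk and 2 in tip, where 20.7% and 25.6% of all such genes were. Bsnd passed the filter through stalk only and Wnk3 through tip only. Bsnd, which encodes barttin, an accessory subunit of chloride channels, was at 0.227, 0.285 and 1.15 RPKM in tip and 2.93, 15.2 and 9.13 RPKM in stalk (-2.52, limma adjusted p = 0.00282). It was highest in replicate 2 within stalk, as Foxi1 and the summed principal cell and urothelial markers were, and highest in replicate 3 within tip.

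Pdzk1, a scaffold of apical carriers, averaged 1.05 ± 0.825 RPKM in tip and 18 ± 3.51 RPKM in stalk (-3.27, limma adjusted p = 5.51e-05). Sgk1, a kinase gene induced by aldosterone, averaged 14.7 ± 10.4 RPKM in tip and 54.3 ± 11 RPKM in stalk (-1.98, adjusted p = 0.00316), with 26.7 RPKM in tip replicate 2, the highest tip library. The kinases that switch Slc12 cotransporters by phosphorylation were divided. Wnk4 averaged 5.59 ± 0.778 RPKM in tip and 21.4 ± 2.53 RPKM in stalk (-1.76, adjusted p = 3.01e-05), and its downstream kinase gene Stk39 8.69 ± 1.05 RPKM in tip and 21.8 ± 1.38 RPKM in stalk (-1.24, adjusted p = 8.68e-05). Wnk2 averaged 8.3 ± 0.147 RPKM in tip and 4.83 ± 0.578 RPKM in stalk (0.68, adjusted p = 0.00256), and Wnk3 1.47 ± 0.298 RPKM in tip and 0.651 ± 0.0842 RPKM in stalk (0.57, adjusted p = 0.0234), while Wnk1 was not called (-0.08, 95% interval -0.34 to 0.18, adjusted p = 0.58). The Wnk3 call was lost without stalk replicate 3 (adjusted p = 0.0617) and with a replicate block (0.0532), and Wnk3 was under the filter without tip replicate 1 or tip replicate 2 and with the highest row. The calls of Wnk2 and Ahcyl1 were lost with the highest row (0.13, adjusted p = 0.704, and 0.33, adjusted p = 0.0593).

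The third gene higher in tip was Ahcyl1, with 58.1 ± 4.82 RPKM in tip and 44.2 ± 1.5 RPKM in stalk (0.38, limma adjusted p = 0.0107). Its protein binds and activates the Slc4a4 cotransporter. Slc4a4 was higher in tip too, but no link of carrier levels to those of any partner was tested, including Ahcyl1. Its paralog Ahcyl2 averaged 9.75 ± 0.76 RPKM in tip and 15.9 ± 0.938 RPKM in stalk (-0.65, adjusted p = 0.00152). The highest level of the list was that of Ezr, which encodes the membrane linker ezrin, with 158 ± 23.6 RPKM in tip and 182 ± 36.5 RPKM in stalk (-0.19, adjusted p = 0.358). Slc9a3r1, a scaffold that joins carriers to ezrin, averaged 37 ± 3.7 RPKM in tip and 60.3 ± 1.22 RPKM in stalk (-0.69, adjusted p = 0.000679). Mcu, the mitochondrial calcium uniporter gene, averaged 5.26 ± 0.455 RPKM in tip and 20.4 ± 1.63 RPKM in stalk (-1.77, adjusted p = 1.67e-05), higher in stalk as Slc24a6 was.

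**Figure D4:**
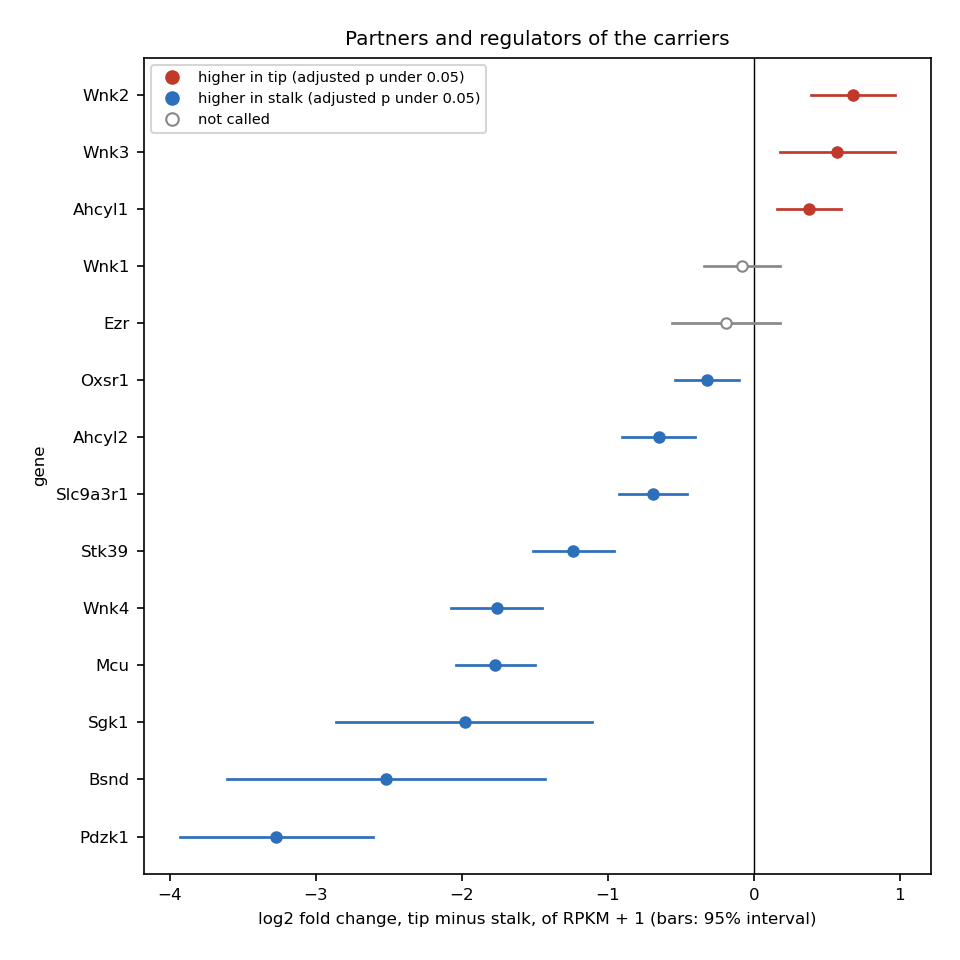
Log2 fold change, tip minus stalk, of RPKM + 1 (x) with its 95% interval (bars) for 14 tested partners and regulators (y), sorted by value; colours as for the carriers (red higher in tip, blue higher in stalk, open grey not called). The 9 blue points run from Oxsr1 (-0.32) down to Pdzk1 (-3.27), and the 3 red points are Wnk2, Wnk3 and Ahcyl1.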

How the data were processed

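Messenger RNA libraries were made from Qiagen RNeasy micro RNA with a stranded Kapa kit, per the labels' protocols. Reads went through bcl2fastq 2.17, TopHat2 and Partek with the mm10 build, per the submitters' processing notes, which give no order or role. The annotation used and whether counting took strand into account are not given in the sources used here. RPKM were deposited by the authors in 1 table of 93615 rows. Rows with a question mark in all 6 columns (24545) were dropped, and rows of a symbol, which carry no transcript identifier, were summed (1 to 14 rows for a carrier). Column sums were 345123 to 366035 RPKM. The depth behind the values was unknown, so no counting interval was given.

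limma 3.58.1 (R 4.3.3) was run on log2(RPKM + 1) with group as the only term, a mean-variance trend, two-sided tests and Benjamini-Hochberg adjustment, for all 12532 symbols with a mean of at least 1 RPKM, and was tested on simulated data. Log2 values were computed here from the deposited RPKM. Carriers were matched to GENCODE M21 coordinates of mm10 (47 of 47). Values in every library are given for called carriers with an absolute log2 fold change of at least 1, for the 2 highest in each of 6 groups, and for carriers under the filter with a group mean of 1 RPKM. Partners named by rule were up to 4 called toward each side with the largest change and the 2 highest. Wnk4, Wnk1, Stk39, Ahcyl2, Slc9a3r1, Oxsr1 and Mcu, the marker genes Umod, Foxi1 and Calb1, and values in every library beyond this rule, were chosen after their values were seen. Some genes that count among the carriers and partners are not reported here by name or drawn. Members and lists were chosen with earlier results of these data known. A ratio of means needs 0.05 RPKM or more in each library of the group with the lower mean.

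Same-numbered tip and stalk libraries did not deviate together, so no pairing was used. Alternatives were pseudocounts of 0.1 and 0.5, no filter, a mean of 5 RPKM, median ratio scaling, the highest row per symbol, no trend, a replicate block and left-out libraries.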

Additional observations from a re-analysis of the deposited data

How the results depend on the processing

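With all 6 libraries 5 carriers were higher in tip and 11 in stalk. With 1 library left out, these counts ranged from 3 (without tip replicate 1) to 5 in tip and from 9 to 11 in stalk. The counts over all genes then ranged from 2511 to 3077 in tip and from 2256 to 2861 in stalk. With a minimum mean of 5 RPKM, 14 carriers were tested, 3 higher in tip and 6 in stalk, all 9 among those called before. Of all 9156 genes tested at that minimum, 2532 were higher in tip and 2110 in stalk. With the highest row of each symbol in place of the sum, 3 carriers were higher in tip and 8 in stalk, and 0 partners were higher in tip by limma: the lost calls included Slc4a2 (-0.06, adjusted p = 0.75), Slc12a4 (0.61, 0.0593), Slc4a8 (0.60, 0.0638), Ahcyl1 (0.33, 0.0593) and Wnk2 (0.13, 0.704), and the call of Slc4a3 (-0.43, 0.0457) was gained, while Slc26a7 and Slc9a7 were under the filter. The highest row leaves out the other rows of a symbol by construction. Of all 12144 genes tested on that row, 2853 were higher in tip and 2472 in stalk. Without a filter, 7 of 47 carriers were higher in tip and 13 in stalk, where 3263 and 2851 of all 21456 genes were. The call of Slc4a8 was then lost (limma adjusted p = 0.0566). Without tip replicate 2 and stalk replicate 1, 5 carriers were higher in tip and 10 in stalk, where 3103 and 2917 of all 12564 genes were.

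Signs differed from the main value, without a call, for Slc34a1 with a pseudocount of 0.1 (0.09) and without stalk replicate 2 (0.37), for Slc20a1 without stalk replicate 1 (0.06), and for Slc9a8 without tip replicate 2 (0.03), tip replicate 3 (0.04) or stalk replicate 3 (0.06); the cause was not tested. With 1 library left out, Slc34a1 ranged from -0.76 to 0.37, Slc20a1 from -0.50 to 0.06 and Slc9a8 from -0.19 to 0.06.

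With a replicate block, 5 carriers were higher in tip and 11 in stalk, the same genes, and of all genes 2716 and 2380, against 3274 and 2815 without it. The Wnk3 call was lost (adjusted p = 0.0532). Deviations of same-numbered libraries correlated at -0.303, -0.335 and 0.0933, so they gave no sign of pairing by number. With 3 libraries a group, these correlations cannot settle whether same-numbered libraries shared embryos. Across numbers, tip replicate 2 correlated with stalk replicate 1 at 0.559 and with stalk replicate 3 at -0.331. Tip replicate 3 did so with stalk replicate 2 at 0.397 and with stalk replicate 1 at -0.436. Tip replicate 1 did so with stalk replicate 3 at 0.334 and with stalk replicate 2 at 0.0549. A pairing under other numbers was not tested.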

Other observations

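Rows of a symbol can differ, although they carry no transcript identifier. The highest row of Slc4a2, with 65.5% of the gene's level, stood at 19.5, 15.2 and 18.8 RPKM in tip, against 18.6, 16.7 and 20.5 RPKM in stalk, with overlapping groups. Its next row stood at 1.48, 4.64 and 3.65 RPKM in tip and 7.7, 10.9 and 8.59 RPKM in stalk, without overlap, so that the difference in the summed level came with the lower rows. The rows cannot be assigned to the Slc4a2 starts shown above, and this pair of rows was picked after their values were seen and not tested. In Slc26a2, by contrast, 1 row held 97.6% of the level.

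Some carriers under the filter were called when every symbol was tested: Slc26a9 (0.98, limma adjusted p = 0.00935), Slc9a5 (0.32, adjusted p = 0.0267) and Slc26a10 (0.21, adjusted p = 0.0198) toward tip, and Slc9a9 (-0.89, adjusted p = 0.00889) and Slc12a8 (-0.88, adjusted p = 0.00293) toward stalk. Slc9a5, an exchanger gene known from brain, had means of 0.597 RPKM in tip and 0.278 RPKM in stalk. It was the only Slc9 gene called toward tip in that fit.

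Exons of 10 carriers overlap an exon of a gene on the opposite strand, whose reads cannot be told apart if strand was not used. The share of exonic bases reached 39.5% for Slc24a5 (with Myef2) and 17.8% for Slc26a10 (with B4galnt1), both under the filter. Among tested carriers it was 13.7% for Slc4a2 (with Fastk), 16.7% for Slc9a4 (with Gm37435) and 11.7% for Slc34a1 (with Pfn3).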
